A study of Saccharomyces cerevisiae with 17 samples.

Results

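Yeast cells lacking Eaf3 were compared with yeast cells lacking Set2 by their steady-state RNA. Every row of the deposited RPKM table (read numbers corrected for gene length and library size) that names a gene was taken, which gave 5326 genes, and 3657 of them averaged 10 RPKM or more across the table's 4 genotypes and were compared. The other 1669 genes lay below that mean. The series holds 17 libraries of Saccharomyces cerevisiae, and 4 RNA libraries stand behind this comparison, 2 biological replicates of the eaf3 deletion and 2 of the set2 deletion. The table also has an H3K36A column, in which lysine 36 of histone H3 was replaced by alanine, and a wild-type column, and both are given beside the deletions as values. The study asked what H3K36 methylation and Eaf3 contribute to spliceosome assembly during transcription.

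All 4 genotypes were labelled as haploid BY4741, a laboratory strain of mating type a that carries his3, leu2, met15 and ura3 mutations. Cells grew in the rich glucose medium YPD at 30 °C and were harvested in mid-log phase, and rRNA-depleted total RNA was sequenced with a strand-specific kit. Each genotype has 1 column in the table, the authors' average over its replicates. No spread between replicates and no test can therefore be had, and every value below is a single averaged level or a difference between averages. How the alleles were made and how many clones were used is not stated in the labels. The table has no row for EAF3, SET2, HHT1 or HHT2, the last pair encoding histone H3, so the genotypes were not checked on the altered genes themselves.

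Set2 travels with elongating RNA polymerase II and methylates lysine 36 of histone H3 over transcribed genes. Eaf3 is a chromodomain protein that binds this mark as a subunit of the histone deacetylase complex Rpd3S, which keeps gene bodies deacetylated and restrains transcription from within them. Eaf3 is also a subunit of NuA4, a histone acetyltransferase complex that acts at promoters, whereas Set2 is not. Loss of Set2 therefore removes the mark, and loss of Eaf3 removes a reader of the mark together with a part of NuA4.

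Most genes had similar levels in the 2 deletions. The median RPKM of the genes compared was 29.1 in the eaf3 deletion and 31.8 in the set2 deletion, and the median log2 ratio of RPKM + 1, eaf3 deletion over set2 deletion, was -0.14. Values called relative below are log2 ratios minus this median. Relative to the median gene, 3444 genes, or 94.2%, lay within 1.5-fold, and the middle 50% of genes lay between -0.17 and 0.15. On the authors' scale, where fold is the ratio of RPKM + 1, 14 of 3657 genes (0.383%) were higher by 2-fold or more in the cells without Eaf3 and 48 (1.31%) were lower by as much. With the median gene as the zero point, 24 genes (0.656%) were higher by 2-fold or more and 29 (0.793%) lower. With a pseudocount of 5 in place of 1, the authors' scale gave 28 lower genes and not 48. No gene lay at least 2-fold above wild type in one deletion and at least 2-fold below it in the other.

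**Figure D1:**
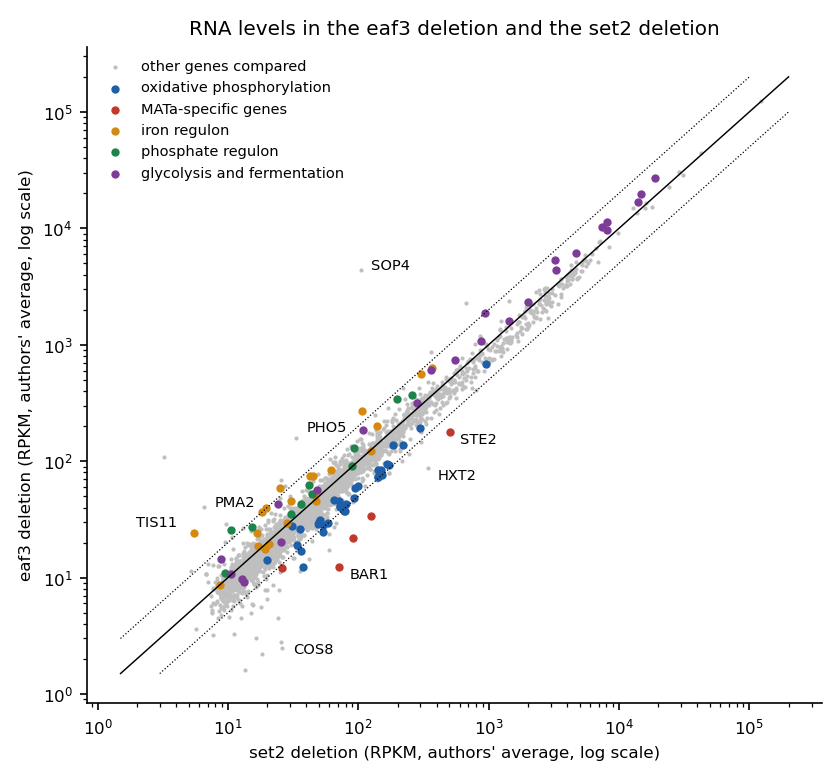
Authors' average RPKM of the 3657 genes compared, in the eaf3 deletion (vertical, log scale) against the set2 deletion (horizontal, log scale); each point is 1 gene, the solid line marks equal levels and the dotted lines 2-fold ratios of RPKM. Genes of oxidative phosphorylation and MATa-specific genes lie below the solid line, most iron, phosphate and glycolysis genes above it, and SOP4 stands far above with 4353 RPKM in the eaf3 deletion and 105 RPKM in the set2 deletion.

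The highest ratios outside the ribosomal DNA belonged to a membrane protein gene, a proton pump, an acid phosphatase and an iron-responsive regulator. SOP4, which encodes a subunit of the endoplasmic reticulum membrane complex (YJL192C, chromosome X, 72710 to 73414, sacCer3), had 4353 RPKM in the eaf3 deletion, 105 RPKM in the set2 deletion, 123 RPKM in H3K36A and 114 RPKM in wild type, a relative log2 ratio of 5.50. The eaf3 deletion alone was high, and the other 3 genotypes lay close together. Its neighbours did not share this: YJL193W on one side had 18.2 RPKM in the eaf3 deletion and 17.6 RPKM in the set2 deletion, and RPS14B on the other had 599.6 and 683 RPKM in the same order. The other 5 members compared of the list of this membrane complex had relative log2 ratios between -0.59 and 0.09.

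PMA2, the minor isoform of the plasma membrane proton pump (chromosome XVI, 482843 to 485686), had 40.4 RPKM in the eaf3 deletion, 6.57 RPKM in the set2 deletion, 5.93 RPKM in H3K36A and 7.50 RPKM in wild type. Again the eaf3 deletion stood apart, and PMA2 passed the minimum mean of 10 RPKM only through its level there. PMA1, the main pump, had 2441 RPKM in the eaf3 deletion and 2687 RPKM in the set2 deletion, a relative log2 ratio of 0.00. YGP1, a secreted glycoprotein induced by nutrient shortage and stress, had 872 RPKM in the eaf3 deletion, 359 RPKM in the set2 deletion, 764 RPKM in H3K36A and 131 RPKM in wild type. Here all 3 mutants were above wild type and the set2 deletion was the lowest of them.

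MATa-specific genes, which give a cells their mating identity, were lower in the eaf3 deletion. Of 5 genes compared, 5 were lower by 2-fold or more on the authors' scale, against 1.31% of all genes, and relative to the median gene 4 of 5, against 0.793%. Their median relative log2 ratio was -1.72. BAR1, the secreted protease that degrades alpha-factor (chromosome IX, 322342 to 324105), had 12.4 RPKM in the eaf3 deletion, 71.7 RPKM in the set2 deletion, 75.2 RPKM in H3K36A and 84.6 RPKM in wild type. AGA2, the adhesion subunit of a-agglutinin, had 22.1, 90.8, 114 and 102 RPKM in the same order of genotypes. In both genes only the eaf3 deletion was low.

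STE2, the alpha-factor receptor, had 179 RPKM in the eaf3 deletion, 504 RPKM in the set2 deletion, 513 RPKM in H3K36A and 418 RPKM in wild type. MFA2, a precursor of a-factor, had 33.7 RPKM in the eaf3 deletion, 125 RPKM in the set2 deletion, 98.6 RPKM in H3K36A and 73.9 RPKM in wild type. STE6, the a-factor exporter, was highest in wild type, with 12.2 RPKM in the eaf3 deletion, 26.1 RPKM in the set2 deletion, 17.9 RPKM in H3K36A and 55.0 RPKM in wild type. MFA1, the other a-factor precursor, lay below the minimum mean and pointed the same way, with 1.60 RPKM in the eaf3 deletion and 10.6 RPKM in the set2 deletion. Fewer cells that express these genes and less of their RNA per cell cannot be told apart in bulk RNA.

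Genes of haploid cells and of the pheromone pathway, which act in both mating types, had a median relative log2 ratio of -0.21 over 14 genes compared, and 4 of the 14 were at least 2-fold lower on the authors' scale, against 1.31% of all genes. Relative to the median gene 3 of 14 were, against 0.793%. FAR1, which arrests the cell cycle in response to pheromone, had 23.7 RPKM in the eaf3 deletion, 59.7 RPKM in the set2 deletion, 39.7 RPKM in H3K36A and 65.6 RPKM in wild type. AGA1, the anchor subunit of a-agglutinin, had 4.54 RPKM in the eaf3 deletion and 12.5 RPKM in the set2 deletion. SST2, which switches off the pheromone G protein, had 8.58 and 22.03 RPKM, and GPA1, the alpha subunit of that G protein, 11.2 and 25.2 RPKM, each with the eaf3 deletion first.

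Other members of the same pathway differed less. The MAP kinases FUS3 and KSS1 had relative log2 ratios of -0.62 and -0.45, the scaffold STE5 -0.15, the beta subunit STE4 -0.08 and the kinase STE20 0.20. HO, the mating-type endonuclease gene of haploid cells, had 50.9 RPKM in each deletion. Of 4 alpha-specific genes looked for, SAG1 alone had a row, and its relative log2 ratio was 0.03, with 11.4 RPKM in the eaf3 deletion and 12.3 RPKM in the set2 deletion. Among other lower genes, PRM5, a pheromone-regulated membrane protein, had 3.03 RPKM in the eaf3 deletion and 16.6 RPKM in the set2 deletion, and TEC1, a transcription factor of filamentous growth, had 5.92 and 15.3 RPKM in that order.

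**Figure D2:**
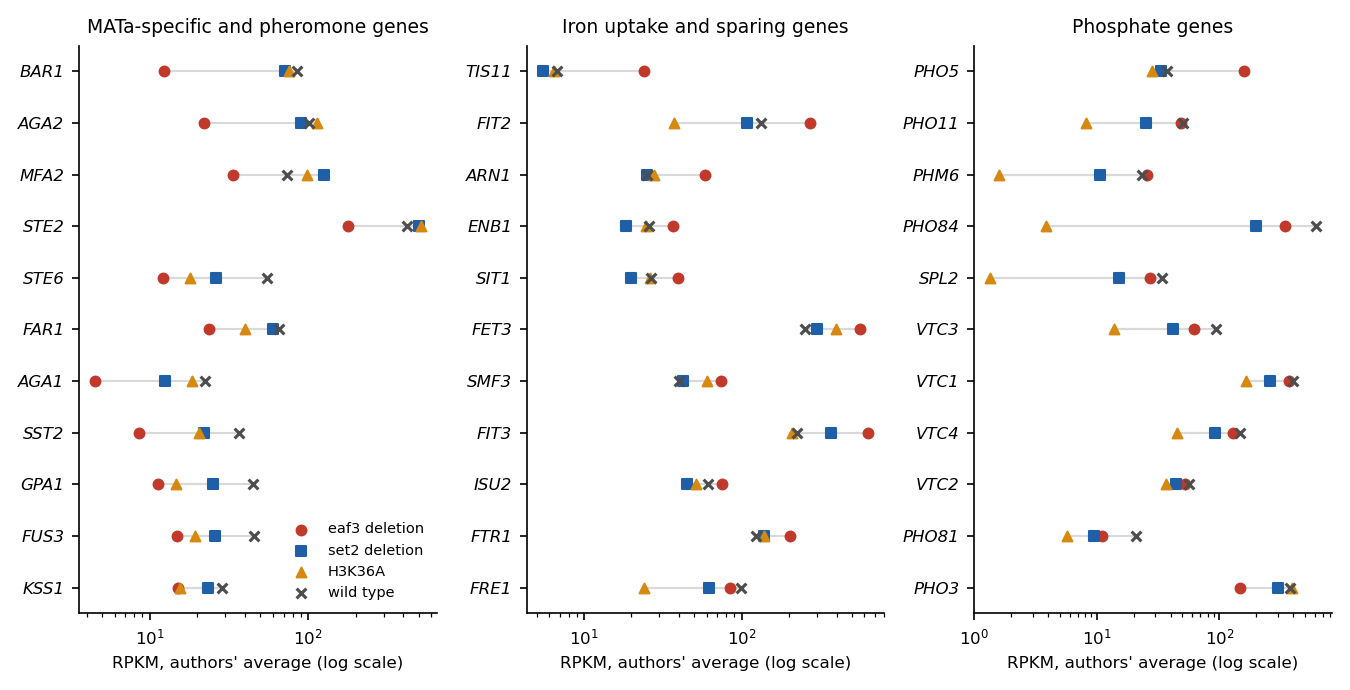
Authors' average RPKM (horizontal, log scale) of single genes in the eaf3 deletion, the set2 deletion, H3K36A and wild type, 1 row per gene, for mating genes (left), iron genes (middle) and phosphate genes (right). BAR1 lies at 12.4 RPKM in the eaf3 deletion and 71.7 RPKM in the set2 deletion, TIS11 at 24.1 and 5.49 RPKM and PHO84 at 344 and 197 RPKM in the same order, and PHO3 is the one phosphate gene shown that is lower in the eaf3 deletion.

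Nuclear genes for the respiratory chain and ATP synthase were lower in the eaf3 deletion as a group. All 34 of 34 genes of the oxidative phosphorylation list lay below the set2 deletion, against 73.7% of all genes compared, and 33 of 34 lay below the median gene. Their median relative log2 ratio was -0.66, their median level 44.2 RPKM in the eaf3 deletion, 78.5 RPKM in the set2 deletion, 88.9 RPKM in H3K36A and 90.8 RPKM in wild type. The differences were moderate for single genes: 5 of 34 were lower by 2-fold or more on the authors' scale, against 1.31% of all genes, and 1 of 34 relative to the median gene, against 0.793%. These are short genes, with 25 of 34 in the lowest quartile of gene length, and genes of that quartile had a median relative log2 ratio of -0.10. Against the median of genes of their own length quartile, the list's median was -0.57.

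By complex, the median relative log2 ratio was -0.32 for the 4 genes of succinate dehydrogenase (complex II). It was -0.65 for 10 genes of complex III and cytochrome c. For 8 genes of cytochrome c oxidase (complex IV) and for 13 genes of ATP synthase it was -0.70 each. This grouping was written after the values were seen and is not a split of the 34 genes. It has members outside that list, such as TIM11, counted with ATP synthase at a relative log2 ratio of -1.09. ATP20, subunit g of ATP synthase, had 12.3 RPKM in the eaf3 deletion, 37.4 RPKM in the set2 deletion, 29.2 RPKM in H3K36A and 44.0 RPKM in wild type. It lies on chromosome XVI near the deleted EAF3 locus, 1 gene beyond AGC1, the second gene from EAF3 on that side. COX6, a subunit of cytochrome c oxidase, had 17.04 RPKM in the eaf3 deletion, 36.3 RPKM in the set2 deletion, 38.3 RPKM in H3K36A and 47.0 RPKM in wild type. In both genes the eaf3 deletion was the lowest of the 4 genotypes.

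Members of the list differed in where the set2 deletion lay against wild type. QCR2, a core subunit of complex III, had 37.5 RPKM in the eaf3 deletion, 77.6 RPKM in the set2 deletion, 92.1 RPKM in H3K36A and 89.0 RPKM in wild type, so the set2 deletion was close to wild type. SDH1, the flavoprotein of complex II, had 26.4 RPKM in the eaf3 deletion, 35.8 RPKM in the set2 deletion, 65.5 RPKM in H3K36A and 22.6 RPKM in wild type, so the eaf3 deletion was close to wild type and the set2 deletion above it. COX5B, the isoform of subunit 5 used when oxygen is low, was the one member at the median gene, with 27.9 RPKM in the eaf3 deletion and 30.8 RPKM in the set2 deletion, whereas its aerobic counterpart COX5A had 138 and 222 RPKM, a relative log2 ratio of -0.54.

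Other mitochondrial functions lay nearer to the median gene. The median relative log2 ratio was -0.17 for 12 citrate cycle genes, -0.10 for 54 mitochondrial ribosomal protein genes, 0.00 for 16 assembly factors of the respiratory complexes, 0.03 for 30 genes of mitochondrial protein import, 0.04 for 7 genes of heme synthesis and 0.18 for 9 genes of ubiquinone synthesis. None of these lists had a member at least 2-fold away in either direction. HAP4, the activating subunit of the Hap complex that drives respiratory genes, had 10.5 RPKM in the eaf3 deletion, 19.9 RPKM in the set2 deletion, 9.66 RPKM in H3K36A and 44.7 RPKM in wild type. Its level in H3K36A was as low as in the eaf3 deletion. The median of the respiratory genes in H3K36A was above the set2 deletion, and a link between HAP4 and these levels was not tested.

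**Figure D3:**
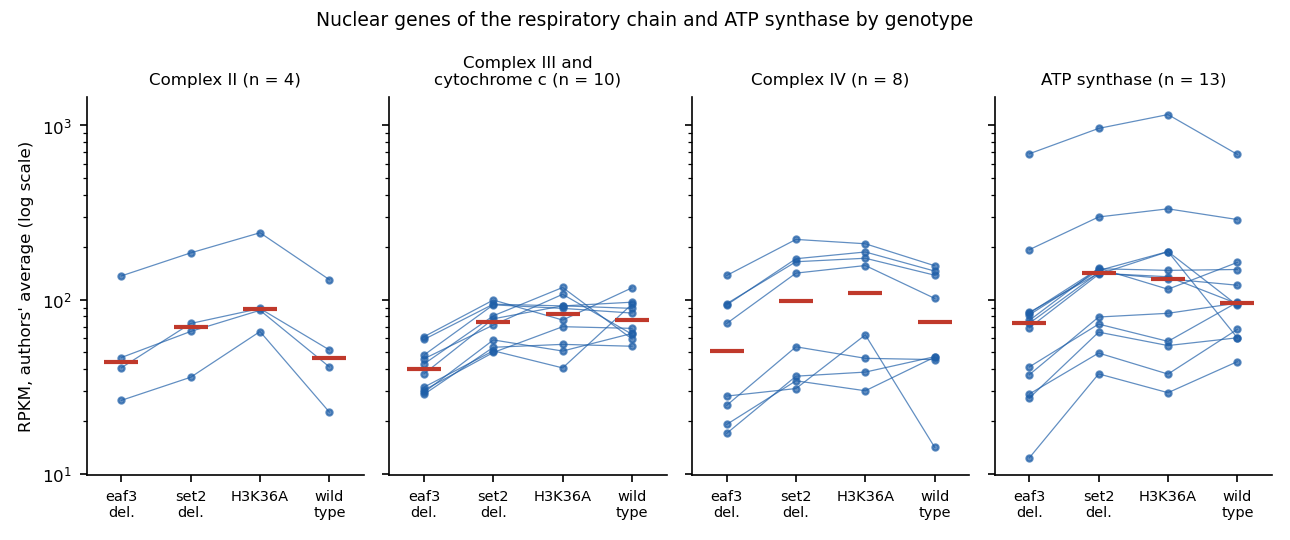
Authors' average RPKM (vertical, log scale) of nuclear genes for respiratory complexes II, III and IV and ATP synthase in the eaf3 deletion, the set2 deletion, H3K36A and wild type; each line is 1 gene and the red bars are medians. The median of the 13 ATP synthase genes was 73.1 RPKM in the eaf3 deletion and 141.7 RPKM in the set2 deletion, and that of the 8 complex IV genes 50.4 and 97.7 RPKM in the same order.

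Genes of glycolysis and fermentation, which turn glucose into ethanol, were higher in the eaf3 deletion. Of 24 genes compared, 21 lay above the set2 deletion, against 26.3% of all genes, with a median relative log2 ratio of 0.54, and none was 2-fold higher on the authors' scale. The list's levels added up to 119278 RPKM in the eaf3 deletion, 89070.0 RPKM in the set2 deletion, 112066 RPKM in H3K36A and 79353 RPKM in wild type. ENO1, an enolase, had 1864 RPKM in the eaf3 deletion, 943 RPKM in the set2 deletion, 1186 RPKM in H3K36A and 702 RPKM in wild type, a relative log2 ratio of 1.12. TDH2 and TDH3, isoforms of glyceraldehyde-3-phosphate dehydrogenase, had relative log2 ratios of 0.87 and 0.66, and these paralogs, like ENO1 and ENO2, can share reads. The 3 genes that lay below the set2 deletion, GCR1, GCR2 and TYE7, encode regulators of glycolytic genes and not enzymes, with relative log2 ratios of -0.25, -0.34 and -0.18.

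Hexose transporters differed among themselves. HXT2, a high-affinity glucose transporter (chromosome XIII, 288079 to 289704), had 87.4 RPKM in the eaf3 deletion, 340.3 RPKM in the set2 deletion, 124 RPKM in H3K36A and 549 RPKM in wild type. It was low in the eaf3 deletion and in H3K36A and high in the other 2 genotypes. The low-affinity transporters HXT1 and HXT3 had relative log2 ratios of 0.71 and 0.50, and HXT6 and HXT7, near-identical high-affinity transporters, -0.25 and -0.27. The median over the 7 transporters compared was 0.03.

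Iron uptake genes were higher in the eaf3 deletion. In the list of copper and iron handling, 5 of 18 genes compared were 2-fold or more above the median gene, against 0.656% of all genes, and the median relative log2 ratio was 0.58. On the authors' scale 2 of 18 were at least 2-fold higher, against 0.383%, and 2 of 18, the CUP1 copies, lower, against 1.31%. A wider iron list, written after the values were seen, had 21 of 21 genes compared above the median gene and a median of 0.68. TIS11, an RNA-binding protein that promotes decay of messages for iron-using proteins when iron is short (chromosome XII, 415801 to 416658), had 24.1 RPKM in the eaf3 deletion, 5.49 RPKM in the set2 deletion, 6.47 RPKM in H3K36A and 6.73 RPKM in wild type. TIS11 is 1 of the 21 genes of the wider list and passed the minimum mean of 10 RPKM only through its eaf3 deletion level. FET3, the multicopper oxidase of high-affinity iron uptake, had 562 RPKM in the eaf3 deletion, 301 RPKM in the set2 deletion, 394 RPKM in H3K36A and 251 RPKM in wild type. In both the eaf3 deletion was the highest genotype.

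Genes for taking up iron bound to siderophores pointed the same way. ARN1, a siderophore transporter, had 58.4 RPKM in the eaf3 deletion, 25.1 RPKM in the set2 deletion, 27.7 RPKM in H3K36A and 25.2 RPKM in wild type, and SIT1 and ENB1, transporters of the same family, had relative log2 ratios of 1.10 and 1.11. FIT2, a cell wall mannoprotein that retains siderophores, had 271 RPKM in the eaf3 deletion, 108 RPKM in the set2 deletion, 37.1 RPKM in H3K36A and 133 RPKM in wild type. H3K36A was the lowest here, unlike for ARN1. Of the iron regulators, AFT2 had 8.63 RPKM in the eaf3 deletion and 8.71 RPKM in the set2 deletion. The copper metallothionein CUP1-1 went the other way, with 78.6 RPKM in the eaf3 deletion, 173 RPKM in the set2 deletion, 77.2 RPKM in H3K36A and 624 RPKM in wild type, and its copy CUP1-2 carries the same 4 values.

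Phosphate genes were higher in the eaf3 deletion than in the set2 deletion. All 11 of 11 genes of the phosphate regulon compared lay above the set2 deletion, against 26.3% of all genes, with a median relative log2 ratio of 0.63, and 1 of the 11, PHM6, was at least 2-fold higher on either scale, against 0.383% of all genes on the authors' scale and 0.656% relative to the median gene. PHO84, the high-affinity phosphate transporter, had 344 RPKM in the eaf3 deletion, 197 RPKM in the set2 deletion, 3.88 RPKM in H3K36A and 611 RPKM in wild type. SPL2, which restrains low-affinity phosphate uptake, had 27.0 RPKM in the eaf3 deletion, 15.2 RPKM in the set2 deletion, 1.36 RPKM in H3K36A and 34.1 RPKM in wild type. For both genes the eaf3 deletion lay nearer to wild type than the set2 deletion did, and H3K36A lay far below either deletion.

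The acid phosphatases did not follow one order. PHO5, the phosphate-repressed secreted enzyme (chromosome II, 429548 to 430951), had 158 RPKM in the eaf3 deletion, 33.5 RPKM in the set2 deletion, 28.0 RPKM in H3K36A and 37.4 RPKM in wild type. PHO3, the constitutive enzyme next to it on the same chromosome (427698 to 429101), had 146 RPKM in the eaf3 deletion, 301 RPKM in the set2 deletion, 391 RPKM in H3K36A and 378 RPKM in wild type. The 2 neighbours thus lay on opposite sides, by relative log2 ratios of 2.34 and -0.90, and as similar paralogs they can share reads. PHO11, a further acid phosphatase near the end of chromosome I, had 48.7 RPKM in the eaf3 deletion, 24.99 RPKM in the set2 deletion, 8.15 RPKM in H3K36A and 50.7 RPKM in wild type.

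Genes for the use of nitrogen sources leaned higher in the eaf3 deletion. In a list written after the values were seen, 3 of 15 genes compared were 2-fold or more above the median gene, against 0.656% of all genes, 2 of 15 were higher by as much on the authors' scale, against 0.383%, and the list's median was 0.31. DUR12, the urea amidolyase, had 61.6 RPKM in the eaf3 deletion, 27.2 RPKM in the set2 deletion, 22.6 RPKM in H3K36A and 19.2 RPKM in wild type. MEP2, an ammonium permease, had 20.1, 9.54, 11.3 and 8.54 RPKM in the same order. It is counted on both scales, and it passed the minimum mean of 10 RPKM only through its eaf3 deletion level. Stress-induced genes had a median relative log2 ratio of 0.36 over 26 genes compared, and 2 of them, YGP1 and DDR2, were 2-fold or more above the median gene, against 0.656% of all genes. On the authors' scale 1 of 26 was, against 0.383%. DDR2, a stress-response gene, was highest in H3K36A, with 22.4 RPKM in the eaf3 deletion, 10.8 RPKM in the set2 deletion, 57.8 RPKM in H3K36A and 8.39 RPKM in wild type.

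**Figure D4:**
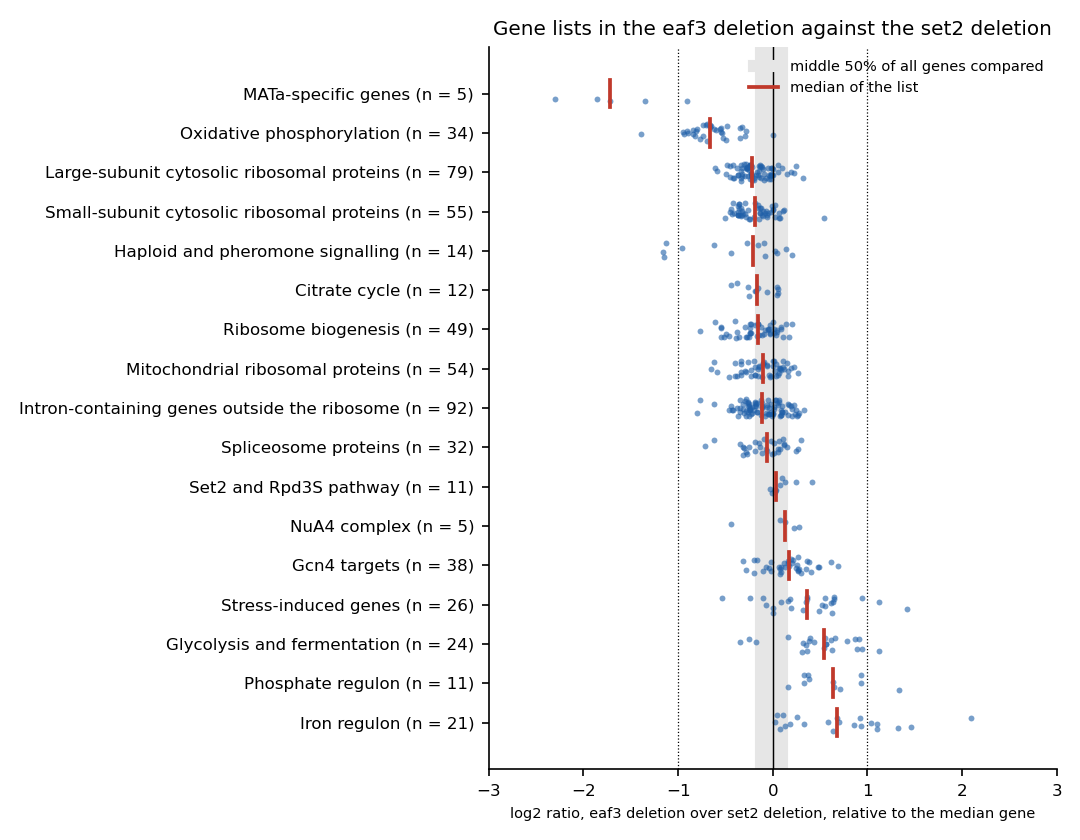
Relative log2 ratio (horizontal), eaf3 deletion over set2 deletion, of the compared members of 17 gene lists; each point is 1 gene, the red bar is the list's median, the grey band is the middle 50% of all genes compared and the dotted lines mark 2-fold. The medians run between -1.72 for the 5 MATa-specific genes and 0.68 for the 21 iron genes, and the lists of splicing, chromatin and ribosome genes lie within 0.25 of the median gene.

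The lists closest to the study's question lay near the median gene. Spliceosome proteins had a median relative log2 ratio of -0.06 over 32 genes compared, and intron-containing genes outside the ribosome -0.11 over 92, with none of either list at least 2-fold away. With the 39 and 17 genes below the minimum counted in, the medians were -0.08 and -0.09 against all genes with a row. All these values are gene totals, which do not separate spliced from unspliced RNA. The Set2 and Rpd3S pathway had a median of 0.04 over 11 genes, with SIN3 and RPD3, subunits of the deacetylase, at 0.24 and 0.13. The remaining NuA4 subunits had a median of 0.13 over 5 genes, between -0.44 for EAF6 and 0.28 for ACT1. With 5 more subunits below the minimum counted in, the median was -0.02 against all genes with a row, with 5 above and 5 below. Histone genes had a median of 0.04 over 6. Of the genes known for internal promoters that open in set2 mutants, 3 were compared. PCA1, STE11 and SPB4 had relative log2 ratios of -0.18, -0.09 and 0.21. With genes below the minimum counted in, 10 of 11 lay below the median of all genes with a row, below which 50% of genes lie by definition. The list's median against it was -0.15. Of these genes 8 lay below the minimum, and ratios ran lower with such genes included. The median log2 ratio was -0.17 over all rows and -0.14 over the genes compared. Gene totals do not show where in a gene transcription starts.

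Ribosome genes leaned lower without reaching 2-fold. The median relative log2 ratio was -0.22 over 79 genes of the large subunit, -0.19 over 55 of the small subunit and -0.15 over 49 genes of ribosome biogenesis. Against the median of genes of their own length quartile, the medians were -0.16, -0.12 and -0.17 in the same order. RPL16B, a large-subunit protein gene, had 1714 RPKM in the eaf3 deletion, 2877 RPKM in the set2 deletion, 2208 RPKM in H3K36A and 2709 RPKM in wild type. It was one of the lowest ratios among genes of at least 500 mean RPKM, beside ALD6, a cytosolic aldehyde dehydrogenase, with 409 RPKM in the eaf3 deletion, 795 RPKM in the set2 deletion, 566 RPKM in H3K36A and 1330 RPKM in wild type. The proteasome had a median of -0.13 over 32 genes and Gcn4 targets, amino acid synthesis genes, 0.17 over 38.

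Several of the lowest ratios belonged to genes at chromosome ends. Within 20 kb of an end, taken as base 1 or the last annotated gene end of the chromosome, 5 of 91 genes compared were 2-fold or more below the median gene, against 0.793% of all genes, while the median of the 91 was -0.05. On the authors' scale 7 of 91 were lower by as much, against 1.31%. The share was 8% of 50 genes within 10 kb and 0.585% of 2735 genes beyond 100 kb. COS8, a member of a subtelomeric family of membrane proteins (chromosome VIII, 6401 to 7546), had 2.504 RPKM in the eaf3 deletion, 26.1 RPKM in the set2 deletion, 21.0 RPKM in H3K36A and 21.6 RPKM in wild type, and its relative log2 ratio was -2.81, or -1.93 with a pseudocount of 5. Its 8 relatives that were compared had relative log2 ratios between -0.17 and 0.38. YAR068W, YHR214W and YHR214W-A, genes of subtelomeric segments that occur in more than one copy and can share reads with those copies, had 2.22, 1.59 and 2.81 RPKM in the eaf3 deletion and 18.3, 13.6 and 25.4 RPKM in the set2 deletion. Of these only YAR068W is among the 91 genes. YHR214W lies 20.1 kb from an end, just outside, and YHR214W-A was not matched to a position. Silencing genes had a median of 0.02 over 6, with SIR2 at 0.05.

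**Figure D5:**
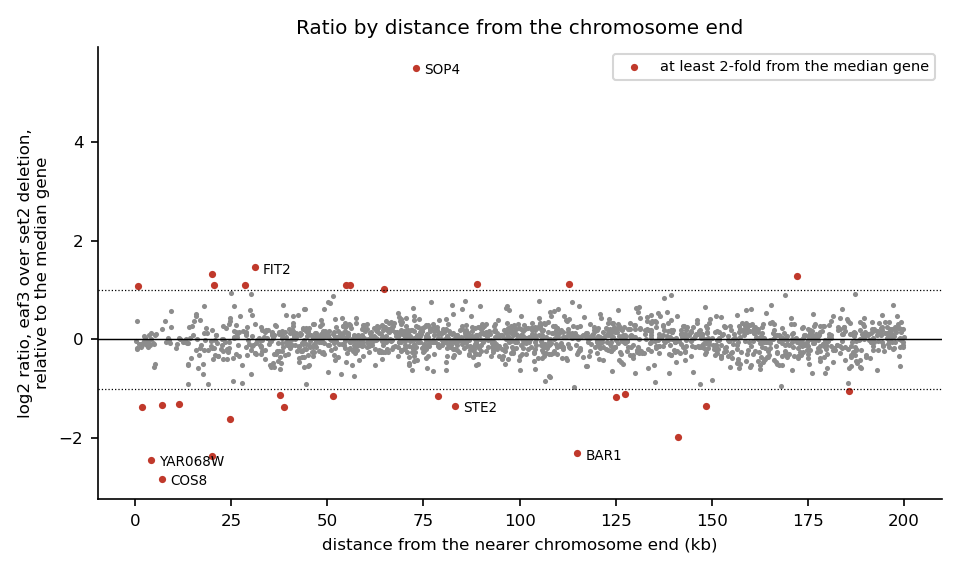
Relative log2 ratio (vertical), eaf3 deletion over set2 deletion, against the distance in kb from the nearer chromosome end (horizontal, 0 to 200 kb); each point is 1 gene compared, red points lie at least 2-fold from the median gene and the dotted lines mark 2-fold. COS8 has the lowest ratio, -2.81, and SOP4, at 5.50, the highest of those drawn.

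A few further genes are given by their levels. Of these, IMD2 lies 6.87 kb from a chromosome end and PUL3 38.7 kb. PUL3, a membrane transporter on chromosome XIV, had 7.91 RPKM in the eaf3 deletion, 24.4 RPKM in the set2 deletion, 20.2 RPKM in H3K36A and 1.13 RPKM in wild type, and its near neighbour YNR064C had 1.66 RPKM in the eaf3 deletion, 15.1 RPKM in the set2 deletion, 11.7 RPKM in H3K36A and 1.49 RPKM in wild type. Both were high in the set2 deletion and H3K36A, and YNR064C was at the wild-type level in the eaf3 deletion. IMD2, which makes GMP precursors, had 14.6 RPKM in the eaf3 deletion, 41.9 RPKM in the set2 deletion, 135 RPKM in H3K36A and 25.6 RPKM in wild type, and can share reads with its copy IMD1. Of 8 rows compared in or beside the ribosomal DNA, 4 were higher by 2-fold or more on the authors' scale, against 0.383% of all genes. Those were all 4 compared rows of the YLR154 family, with a median relative log2 ratio of 1.77. The other 4 were the ASP3 copies beside them, each with about 267 RPKM in the eaf3 deletion and 235 RPKM in the set2 deletion. YLR154C-G had 108 RPKM in the eaf3 deletion, 3.23 RPKM in the set2 deletion, 18.5 RPKM in H3K36A and 83.9 RPKM in wild type, so the set2 deletion was the low one and the eaf3 deletion was near wild type. TAR1 had 69.2 RPKM in the eaf3 deletion, 25.6 RPKM in the set2 deletion, 103 RPKM in H3K36A and 9.78 RPKM in wild type, and was highest in H3K36A. The libraries were depleted of rRNA, and the part of that depletion in these rows was not tested.

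Genes beside the deleted loci were read since the altered genes have no row. Next to EAF3 on chromosome XVI, SDD4 had 16.1 RPKM in the eaf3 deletion and 15.5 RPKM in the set2 deletion, and YME1 had 49.1 and 43.4 RPKM in the same order. Nearest to SET2 on chromosome X among genes with a row, TOH1 had 131 RPKM in the eaf3 deletion and 103 RPKM in the set2 deletion. ERG20, on the other side, had 74.6 and 88.6 RPKM. These 4 nearest genes with a row lay within 1.5-fold of the median gene. QCR8, a complex III gene and the second gene from SET2 on one side, had a relative log2 ratio of -0.84. Its levels were 29.3 RPKM in the eaf3 deletion, 58.6 RPKM in the set2 deletion, 50.6 RPKM in H3K36A and 63.9 RPKM in wild type. The eaf3 deletion was thus the low one. The other second genes had relative log2 ratios of 0.30 for CPS1, -0.24 for AGC1 and -0.28 for CCL1. AGC1 and CCL1 lay below the minimum mean. At the 2-fold limit, MEP2 and DUR12 were the genes just inside on the higher side and YIL014C-A and DDR2 just outside, and INH1 and THI7 were just inside on the lower side and ATP7 and YOR385W just outside.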

How the data were processed

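RNA of 4 genotypes was analysed; the chromatin immunoprecipitation and input libraries were not used here. The deposited table gives RPKM as the authors' averages over replicates per the file headers, and CASAVA, TopHat2 2.0.14 and the build sacCer3 are named per the submitters' processing notes. Sequencing depth per library is unknown, so no interval or detection limit was given. The lowest value in any of the 4 columns is 1.0041, so a gene below about that level in a single genotype has no row. Genes that lost their RNA in only one of the deletions would thus be missing from the comparison and its counts.

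Of 5328 rows with a name, 2 named R (0.000395% of the eaf3 deletion's RPKM sum) were left out, and 3 further lines hold no values here. Locus tags or symbols matched 5176 rows to the RefSeq R64 gene table and 150 did not match; 28 rows share all 4 values with another row. Log2 ratios of the deposited RPKM + 1 were taken, eaf3 deletion over set2 deletion, over genes averaging 10 RPKM or more in the 4 columns. That mean includes the compared columns themselves, so a gene such as TIS11, PMA2 or MEP2 can pass it through a high eaf3 deletion level. The planned limma test needs a column per library and was not run. Named genes were the 15 highest and 15 lowest ratios, the 5 highest and lowest above a mean of 500, up to 4 per list beyond 2-fold or 2 otherwise, the 3 highest and lowest below the minimum, genes at the threshold and genes beside both loci; further list members are given as values. Members and lists were chosen with earlier results of these data known, and the respiratory complex, iron, nitrogen and other mitochondrial lists were written after the values were seen. Python 3.11.15, pandas 2.3.3 and numpy 2.4.6 were used, and the calculation was tested on simulated data. Alternatives covered pseudocount, minimum, scaling and left-out rows.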

Additional observations from a re-analysis of the deposited data

How the results depend on the processing

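The count of genes lower in the eaf3 deletion by 2-fold or more was 28 with a pseudocount of 5, 29 after centring on the median gene, 29 after quantile normalization and 27 without the lowest quartile of gene length, against 48. The count higher was 24 after centring, 23 after quantile normalization, 9 with a wild-type RPKM of at least 10 and 7 without the lowest quartile of gene length, against 14. Leaving out the lowest quartile of gene length, or rows in the ribosomal DNA, was chosen after seeing the data. Dropping a length quartile, or requiring a wild-type RPKM of at least 10, removes genes by construction. Of the higher genes, TIS11, PMA2, MEP2, TAR1 and YLR154W-B had less than 10 RPKM in wild type. Centring shifts every log2 ratio by the same median, and a larger pseudocount moves each ratio toward equal levels. For quantile normalization the cause was not tested. Under the alternatives run, list medians ranged between -1.79 and -1.37 for MATa-specific genes, -0.68 and -0.55 for oxidative phosphorylation, 0.34 and 0.57 for glycolysis, 0.36 and 0.64 for phosphate and 0.31 and 0.59 for copper and iron. Some values moved by more than 1.5-fold in the same direction from the median gene. With a pseudocount of 5, relative log2 ratios moved to -1.93 for COS8, -1.84 for YHR214W-A and -1.57 for YAR068W. They moved to -1.38 for YHR214W, -1.30 for PRM5 and 3.91 for YLR154C-G. The median of the list of ribosomal DNA rows, which also holds the ASP3 copies, was 0.93 and ranged between 0.30 and 1.57 over 6 settings. No paired analysis was possible because the columns are averages with no replicate numbers, and leaving out a replicate could not be done for the same reason.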
